A study of Homo sapiens with 9 samples.

Results

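ZNF395 is a zinc finger transcription factor that is expressed at high levels in clear cell renal cell carcinoma, and MYC is a basic helix-loop-helix transcription factor. MYC binds DNA as a dimer with MAX, preferring the E-box motif, and is known for occupying the promoters of active genes for growth, metabolism and ribosome production. Here the peaks of ZNF395 tagged with enhanced green fluorescent protein (eGFP) in A498 cells were set against the MYC peaks of 786-O cells. Both are established lines of clear cell renal cell carcinoma, so this comparison crosses 2 cell lines and 2 antibodies at once, and a difference between the lists may belong to either.

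The members were all 7718 GFP peaks listed for tagged A498 cells, out of 52875 peaks in the 5 lists of the series. A MYC partner was a MYC peak that overlapped a tagged A498 peak by 1 bp or more, and a stricter partner was one whose midpoint lay within 200 bp of the midpoint of the A498 peak. The MYC list held 20199 peaks. Tagged A498 cells carried an eGFP insertion at ZNF395, made with a guide plasmid and a donor plasmid, and were precipitated with a GFP antibody; the labels do not say whether they were a clone or a pool. The MYC library came from parental 786-O cells without the tag. 786-O cells with ZNF395-eGFP, called tagged 786-O, were also precipitated with a GFP antibody and gave 20034 peaks. GFP precipitations of parental A498 (1563 peaks) and parental 786-O cells (3361 peaks) show where that antibody gives peaks without eGFP. Each group was 1 library. Titles were followed where labels conflict: the libraries titled A498 name 786-O as the cell line, and the MYC library names P300, a coactivator, as its target.

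The lists hold no read counts: the depth under a peak is unknown, and no difference given here has a replicate check. The 95% interval of a share is exact (Clopper-Pearson), takes peaks as independent and covers nothing beyond counting error. The score of a peak is the authors' −log10 value of a p or q, and was used for ranking within a list. Tagged A498 peaks scored 2.01 to 223 (median 5.71) and were 166 to 10858 bp wide (median 245 bp). Together they covered 2380 kb, against 10805 kb for the MYC peaks, whose median was 425 bp. Peaks are given by their position in hg19. Gene names, promoter shares and sequence motifs at the peaks were not analysed here.

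Nearly as many tagged A498 peaks had a MYC peak as did not. Of the 7718 peaks, 3613 overlapped a MYC peak (46.8%, 95% interval 45.7 to 47.9), and 2422 had a MYC midpoint within 200 bp (31.4%, 30.3 to 32.4). Seen from MYC, 3470 of 20199 peaks overlapped a tagged A498 peak (17.2%, 16.7 to 17.7) and 12.0% (11.5 to 12.4) met the midpoint rule. The parental GFP lists, which stand for the antibody without its target, differed between the lines on the same measure: 15.9% (14.1 to 17.8) of parental A498 peaks and 60.5% (58.8 to 62.1) of parental 786-O peaks overlapped a MYC peak. By length, 1171 kb of the tagged A498 peaks lay inside MYC peaks, which was 49.2% of the A498 list and 10.8% of the MYC list.

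The sites where both lists were strong were led by a peak on chromosome 19. These are the 10 parental-free A498 peaks, meaning peaks that overlap no called peak of either parental GFP list, with the lowest sum of their rank in the A498 list and the rank of their MYC partner. The site at chr19:1862558-1863501 had rank 41 in tagged A498 (score 72.9) and rank 19 in MYC (score 317). It was followed by chr12:131356048-131357096, with ranks 35 and 106, and by chr7:150759694-150760551, with ranks 23 and 141. At chr3:193852593-193853140 the ranks were 75 and 285, and at chr1:41445288-41445995 they were 313 and 108. The other sites were chr7:150065681-150066209, chr3:47324167-47324790, chr17:17494909-17495441, chr16:4233597-4234597 and chr7:26241128-26241468. All 10 also had a peak in tagged 786-O cells, as did 3563 of all 3613 A498 peaks with MYC (98.6%). In tagged 786-O the ranks of the 10 ran from 34 to 207 of 20034.

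The midpoints of these leading pairs did not all coincide. They lay between 20 and 629.5 bp apart, and 4 of the 10 met the 200 bp rule. The chromosome 1 site had the closest pair (20 bp), and the chromosome 19 site, where the MYC peak was 2753 bp and the A498 peak 944 bp wide, had the farthest. The site on chromosome 16 held rank 2 in tagged A498 (score 222) but rank 525 in MYC.

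The strongest tagged A498 peak of all had no MYC peak. This peak, chr11:8008542-8009322, had a score of 223, and the nearest MYC peak was 80.8 kb away. The same site was rank 1 in tagged 786-O cells, so in 786-O itself it was a ZNF395-eGFP site without a MYC peak. The peak at chr5:25544737-25545431 (rank 12, score 139) was 4865 kb from the nearest MYC peak, the farthest of the leading parental-free peaks without MYC, and was rank 2 in tagged 786-O. Next came chr9:110103139-110103820 (rank 15), 56.7 kb from a MYC peak, and chr9:35658083-35658534 (rank 19), which missed a MYC peak by only 0.004 kb. Only a few bases kept that last site apart from MYC under the overlap rule.

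The others among the 10 were chr2:39455248-39455566 (rank 37), chr3:153839402-153839870 (rank 40), chr9:69710811-69711219 (rank 68), chr8:28479782-28480384 (rank 69), chr2:47798417-47798804 (rank 103) and a peak on an unplaced contig of chromosome 9 (rank 106). Of the 10, 8 had a peak in tagged 786-O. The exceptions were the sites on chromosome 3 and at chr2:47798417-47798804, with A498 scores of 73.4 and 47.9, which had no peak in any of the other 4 lists. At chr9:69710811-69711219 the tagged 786-O peak had rank 8411 of 20034.

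Conversely, several of the strongest MYC peaks had no tagged A498 peak. The 5 highest were chr17:17108816-17110360 (MYC rank 5, score 362), chr20:342825-343617 (rank 6), chrX:9430923-9431689 (rank 8), chr12:64797800-64799265 (rank 11) and chr2:232328125-232329714 (rank 13). All 5 had a tagged 786-O peak, with ranks of 10294, 11616, 17764, 1319 and 5621 of 20034 in the same order. The chromosome 12 site also had a peak in parental 786-O cells without the tag, of rank 1927. Such a peak was common at strong MYC peaks: 1745 of the 2020 highest-scoring ones (86.4%) had one. Of all MYC peaks without a tagged A498 peak, 8873 of 16729 (53.0%) did. At the MYC peaks of ranks 1 to 4, which were named after their values were seen, tagged A498 did have a peak, of A498 rank 3509 on chromosome 20, 159 on chromosome 6, 2091 on chromosome 15 and 2839 on chromosome 2. The A498 peaks on chromosomes 6 and 15 overlapped a parental 786-O peak, found without the tag.

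The share of A498 peaks with MYC rose with the A498 score up to decile 9. The list was divided into 10 equal parts by score, from decile 1 (scores of 2.01 to 3.12) to decile 10 (15.3 to 223). In decile 1, 202 of 771 peaks had a MYC peak (26.2%, 23.1 to 29.5). The share was 39.2% (35.8 to 42.8) in decile 5, 57.1% (53.5 to 60.6) in decile 7 and 71.6% (68.3 to 74.8) in decile 9. In decile 10 it was 63.1% (59.6 to 66.5), and its interval lay below that of decile 9. The midpoint rule gave the same shape at a lower level, with 17.5% in decile 1, 49.1% in decile 9 and 43.5% in decile 10.

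Peaks found without the tag were most frequent in decile 10. In all, 1290 tagged A498 peaks (16.7%, 15.9 to 17.6) overlapped a peak of either parental list and are called parental-matched. In decile 10, 363 of 772 peaks were parental-matched (47.0%), 236 of them by a parental A498 peak, against 52 of 771 (6.74%) in decile 1. Among parental-free peaks the share with MYC was 73.0% (69.0 to 76.8) in decile 9 and 76.0% (71.6 to 80.1) in decile 10, so the lower value in decile 10 was not seen without the parental-matched peaks. Counts from the top of the list differed with the number of peaks taken. Of the 50 highest peaks 41 had a MYC peak (82.0%, 68.6 to 91.4), and of the 50 highest parental-free peaks 42 did (84.0%, 70.9 to 92.8). Of the 200 highest peaks 118 had a MYC peak (59.0%, 51.8 to 65.9), and of the 200 highest parental-free peaks 156 did (78.0%, 71.6 to 83.5).

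**Figure D1:**
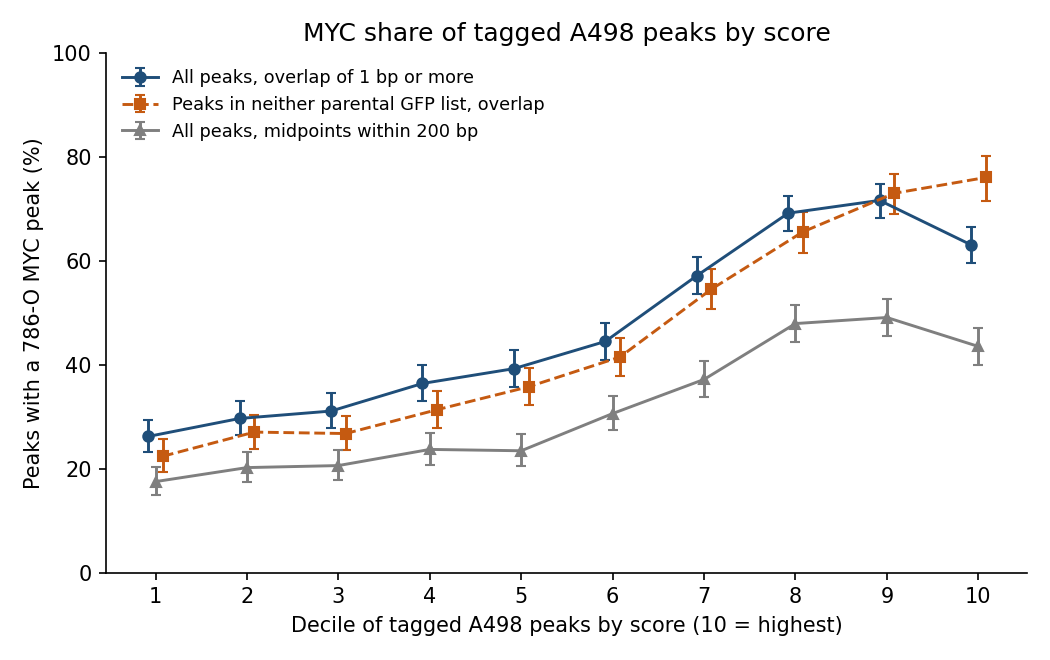
Share of tagged A498 peaks with a 786-O MYC peak (y axis, percent) in each decile of the A498 list by score (x axis, 10 is the highest), for all peaks by overlap, for parental-free peaks by overlap and for all peaks by the midpoint rule; bars are exact 95% intervals. The blue points reach 71.6% in decile 9 and stand at 63.1% in decile 10, whereas the parental-free peaks reach 76.0% there.

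Matches to the parental lists of each line went with unlike MYC shares. Tagged A498 peaks at a parental 786-O peak but no parental A498 peak numbered 755, and 707 of them had a MYC peak (93.6%, 91.7 to 95.3), the highest share of the classes given here. Peaks at a parental A498 peak had MYC in 165 of 535 cases (30.8%, 26.9 to 34.9), and the 98 of these without a parental 786-O peak in 21.4% (13.8 to 30.9). Parental-free peaks lay between, at 2741 of 6428 (42.6%, 41.4 to 43.9). Parental-matched peaks as a whole, at 67.6% (65.0 to 70.1), therefore mix 2 unlike classes.

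The classes also differed in score and width. The class matched only by parental 786-O scored higher (median 8.12) and was wider (median 345 bp) than the parental-free peaks, with medians of 5.26 and 236 bp. Within decile 1 all 39 peaks of this class had a MYC peak (lower bound 91.0%), against 22.4% (19.4 to 25.6) of the 719 parental-free peaks. Its share stayed between 86.2% and 100% over the deciles. Peaks at a parental A498 peak had a median score of 13.5, yet in decile 10 only 54 of 236 had MYC (22.9%, 17.7 to 28.8). One control library served the authors for both parental 786-O and MYC, and its part in the high share was not tested.

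**Figure D2:**
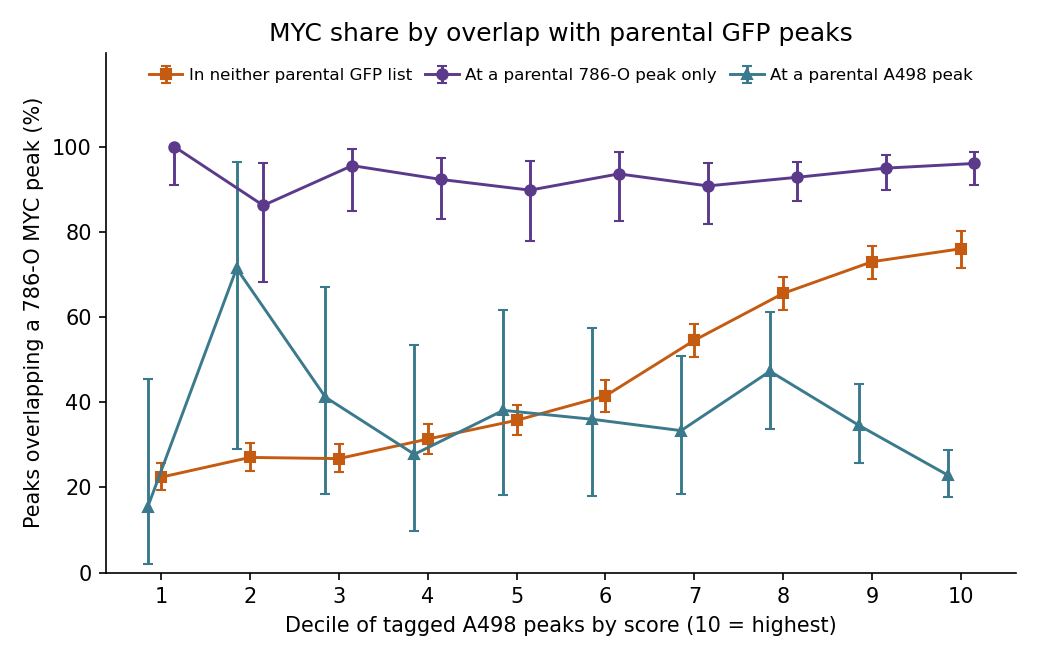
Share of tagged A498 peaks overlapping a MYC peak (y axis, percent) by score decile (x axis) for peaks in neither parental GFP list, at a parental 786-O peak only and at a parental A498 peak, with exact 95% intervals. The class matched only by parental 786-O lies at 86.2% or more in every decile, and the class at parental A498 peaks holds only 7 to 25 peaks in each of deciles 1 to 6.

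The strongest parental-matched sites show the contrast. Of the 5 highest A498 peaks at a parental A498 peak, all also had a parental 786-O peak and 1 had a MYC peak. The highest, chr17:19091231-19091703, had score 206 and rank 3 in tagged A498, rank 4 in parental A498 and rank 1 in parental 786-O. The others lay at chr1:147994079-147994724, on an unplaced contig of chromosome 9, at chr17:18966746-18967326 and at chr17:41438272-41438859. The site with MYC was chr17:41438272-41438859, where the MYC peak had rank 11934. The 5 highest matched only by parental 786-O all had MYC. They were chr1:46598193-46599145, chr4:106629544-106630153, chr1:184020634-184021275, chr16:3070097-3071773 and chr19:3985066-3985765, with MYC ranks of 6986, 11580, 196, 2130 and 2325. Their parental 786-O peaks ranked 3255, 1111, 999, 419 and 496 of 3361.

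Wide A498 peaks had a MYC partner far more often than narrow ones. In the narrowest decile (166 to 171 bp) 20.9% (18.0 to 23.9) overlapped MYC, and in the widest (514 to 10858 bp) 83.1% (80.3 to 85.7). The midpoint rule, which does not count touching edges, rose as well, from 12.6% (10.3 to 15.1) to 53.7% (50.1 to 57.3). Parental-matched peaks made up 6.48% of the narrowest decile and 41.5% of the widest, and their part in the rise was not tested. Score and width were related across the 7718 peaks (Spearman's rho 0.36, a description of 1 library). Within a score decile the wider 50% still had the higher share: 33.9% (29.2 to 38.9) against 18.4% (14.7 to 22.7) in decile 1, 56.5% against 32.5% in decile 6 and 81.6% (77.4 to 85.3) against 44.6% (39.5 to 49.7) in decile 10.

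**Figure D3:**
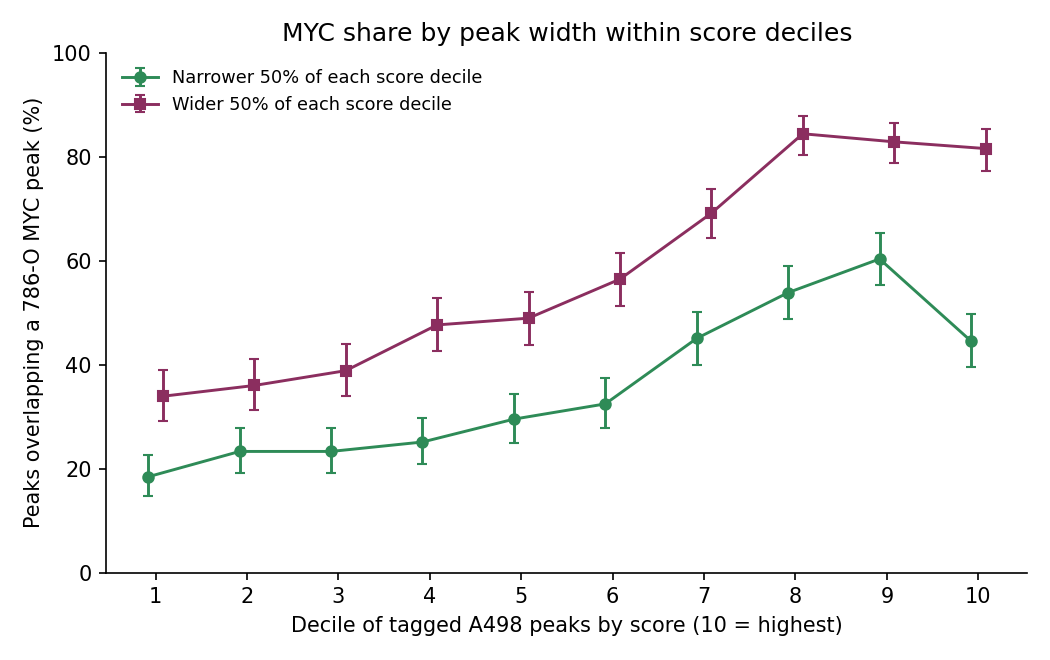
Share of tagged A498 peaks overlapping a MYC peak (y axis, percent) by score decile (x axis), separately for the narrower and the wider 50% of each decile, with exact 95% intervals. The wider peaks lie above the narrower ones in all 10 deciles, from 33.9% against 18.4% in the lowest to 81.6% against 44.6% in the highest.

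A tagged A498 peak with a MYC partner was usually a narrow peak within a wide one. The A498 peaks with MYC had a median width of 306 bp and their highest-scoring MYC partners 801 bp. The MYC peak was the wider in 89.9% of cases, with a median ratio of 2.35, and 2400 of the 3613 A498 peaks (66.4%) lay wholly inside it. The midpoints were a median of 130.5 bp apart (quartiles 59 and 247 bp), 789 pairs were within 50 bp, and 199 were over 500 bp apart. These distances follow in part from the overlap that chose the pairs. All 2422 peaks that met the midpoint rule also overlapped, and 1191 peaks overlapped without meeting it; the distances on either side of that limit were 200 and 200.5 bp.

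Most pairings were of 1 peak with 1 peak. Of the A498 peaks with MYC, 66 touched 2 MYC peaks and 1 touched 3. Of the MYC peaks, 191 held 2 tagged A498 peaks and 10 held 3. The median overlap covered 100% of the A498 peak and 38.4% of the MYC peak.

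Strong and wide MYC peaks had a tagged A498 peak more often than weak and narrow ones. Of the lowest MYC decile by score, 6.93% (5.86 to 8.13) had a tagged A498 peak, and of the highest 37.8% (35.7 to 40.0). By the midpoint rule the shares were 5.40% and 23.1%. The share of MYC peaks at a parental 786-O GFP peak, which carries no tag, rose alongside, from 3.42% to 23.4%, and was 26.8% among MYC peaks with a tagged A498 peak and 6.03% among those without; its part in the rise was not tested. By width the range was larger, from 3.81% (3.02 to 4.74) in the narrowest decile to 49.9% (47.7 to 52.1) in the widest, whose peaks were 1006 to 3509 bp. Under the midpoint rule the rise ended at decile 9, with 24.3% (22.4 to 26.2) in decile 9 and 24.2% (22.3 to 26.1) in decile 10. Per length of MYC peak, tagged A498 peaks numbered 19.0 per 100 kb in the narrowest and 44.1 per 100 kb in the widest decile, so the longer peaks held more A498 peaks even per base. Score and width were strongly related in the MYC list (rho 0.70 across 20199 peaks).

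**Figure D4:**
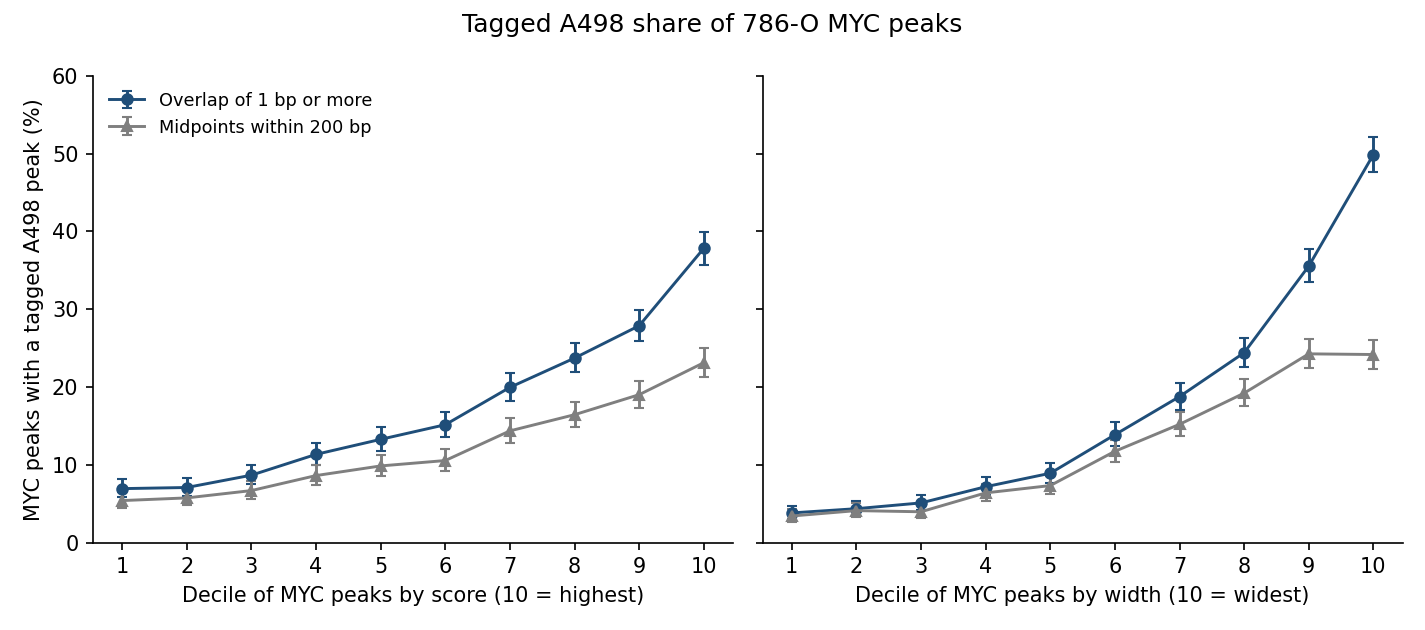
Share of 786-O MYC peaks with a tagged A498 peak (y axis, percent) by decile of MYC score (left) and of MYC width (right), by overlap and by the midpoint rule, with exact 95% intervals. Overlap shares reach 37.8% in the highest score decile and 49.9% in the widest decile, where the midpoint share is 24.2%.

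Where both lists had a peak, the score in one list said little about the score in the other. At the 3613 A498 peaks with MYC the scores in the 2 lists were nearly unrelated (Spearman's rho 0.046, and 0.031 at the 2741 parental-free ones; widths, rho 0.14). The partners of decile 10 A498 peaks came from the highest MYC decile in 27.3% of cases, and the partners of decile 1 peaks in 20.3%. For all A498 peaks with MYC the figure was 23.9%, while 3.43% of partners came from the lowest MYC decile.

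Nearly every A498 peak with MYC also had a GFP peak in tagged 786-O cells. A tagged 786-O peak was present at 3563 of the 3613 (98.6%, 98.2 to 99.0), but at 805 of the 4105 A498 peaks without MYC (19.6%, 18.4 to 20.9). Of the 3563, 859 (24.1%) were parental-matched, as were 42.5% of the 805. Read the other way, MYC was present at 81.6% (80.4 to 82.7) of A498 peaks that had a tagged 786-O peak and at 50 of the 3350 that had none (1.49%, 1.11 to 1.96). With parental-matched peaks left out these shares were 85.4% (84.1 to 86.6) and 1.13% (0.80 to 1.56). Of the MYC peaks without a tagged 786-O peak, 36 of 7892 (0.456%) had a tagged A498 peak, and in the highest MYC decile 1 of 275 did. Of those with a tagged 786-O peak 27.9% (27.1 to 28.7) did. Tagged 786-O and MYC libraries come from the same line, and a common effect of that line on both lists cannot be told apart from one of the tagged factor.

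Of the 3563 A498 peaks with MYC and a tagged 786-O peak, 279 scored above 20. The 50 A498 peaks with MYC but no tagged 786-O peak included none that did, but 50 is a small number for such a comparison. The median score of the 50 was 5.89, close to the 5.71 of the whole list, but their highest was 14.6. Parental-matched peaks were 13 of the 50 (26.0%), close to the 24.1% of the other 3563. Their MYC partners had a median rank of 9526, against 5312 for the partners of the other 3563. The highest-scoring parental-free ones were chr1:151965244-151965562 (A498 rank 1412), chr19:12899593-12899777 and chr1:41950329-41950529, sites chosen after their values were seen.

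The 3300 A498 peaks with neither MYC nor a tagged 786-O peak had low scores for the most part. They had medians of 4.49 for score and 210 bp for width, although 48 of them scored above 20 and the highest reached 73.4, and 76 (2.30%) were parental-matched. Their median gap to the nearest MYC peak was 154.5 kb, against 123.9 kb for all A498 peaks without MYC. Of the 3300, 35 were within 1 kb of a MYC peak. The 805 peaks without MYC but with a tagged 786-O peak were unlike them. They had a median score of 8.32, 42.5% were parental-matched, and 187 lay within 1 kb of a MYC peak, 104 of these within 200 bp.

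The MYC share differed widely between chromosomes. On chromosomes 1 to 22 and X together 47.3% of 7632 tagged A498 peaks had MYC. Among the 22 of these with 50 or more A498 peaks, the share was highest on chromosomes 22 (91 of 129, 70.5%, 61.9 to 78.2), 3 (172 of 246, 69.9%, 63.8 to 75.6) and 6 (141 of 203, 69.5%, 62.6 to 75.7). It was lowest on chromosomes X (48 of 187, 25.7%, 19.6 to 32.6), 21 (48 of 137, 35.0%, 27.1 to 43.6) and 2 (292 of 827, 35.3%, 32.0 to 38.7). The intervals of 10 chromosomes lay above and those of 8 below the common share. Chromosome 18, with 37 peaks, was too thinly covered to place. None of the 42 A498 peaks on chromosome Y (upper bound 8.41%), 41 on 7 unplaced contigs (upper bound 8.60%) and 3 on the mitochondrial genome overlapped a MYC peak. Of the 20199 MYC peaks, 20178 lay on chromosomes 1 to 22 and X, so very few could overlap these A498 peaks.

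The observed range was wider than one built from scores and widths. Giving every peak the common share of its score decile and width class would place the 22 chromosomes between 43.0% and 53.4%, and 5 of the 22 observed intervals held the value so derived. Chromosome 22 lay 20.6 and chromosome 3 lay 19.2 percentage points above it, and chromosome X lay below it (25.7% against 43.0%). Among parental-free peaks the share was 71.2% on chromosome 6, 66.7% (59.6 to 73.2) on chromosome 3 and 64.8% on chromosome 22, against 25.1% (18.8 to 32.4) on chromosome X, 29.3% (21.2 to 38.5) on chromosome 21 and 30.2% (26.8 to 33.8) on chromosome 2.

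Chromosomes differed among their stronger and among their weaker peaks. Over the 22 chromosomes with 50 or more A498 peaks, the MYC share ran from 39.2% (X) to 85.7% (22) in deciles 8 to 10 and from 20.6% (X) to 66.7% (6) in deciles 1 to 7. Some chromosomes were alike in the upper part and apart in the lower. In deciles 8 to 10 the MYC share was 76.7% (69.8 to 82.6) on chromosome 7 and 76.4% (66.2 to 84.8) on chromosome 3. In deciles 1 to 7 it was 24.1% (20.6 to 27.8) on chromosome 7 and 66.2% (58.3 to 73.6) on chromosome 3. Chromosome 2 showed 65.7% and 24.8% for the same parts of the list, and chromosome 22 showed 85.7% and 63.2%. Chromosome X was low in both, with 39.2% (25.8 to 53.9) and 20.6% (14.1 to 28.4).

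Chromosomes with a low MYC share had many A498 peaks for their MYC peaks. All 8 whose interval lay below the common share had more than the 0.378 tagged A498 peaks per MYC peak of chromosomes 1 to 22 and X together, and all 10 whose interval lay above it had fewer; the same A498 peaks enter both numbers. Chromosome 7 had 0.744 tagged A498 peaks per MYC peak, chromosome 8 had 0.591 and chromosome 2 had 0.545. Chromosomes 3, 6, 22 and 14 had 0.221, 0.211, 0.212 and 0.151. The share of MYC peaks found in A498 was highest on chromosome 7 (255 of 1012, 25.2%, 22.5 to 28.0) and lowest on chromosomes 18 (6.15%, 3.74 to 9.44) and 14 (10.2%, 7.68 to 13.3). On chromosome 7, A498 peaks both with and without MYC were thus many for its MYC peaks. No copy number was measured, and its part in these counts was not tested.

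**Figure D5:**
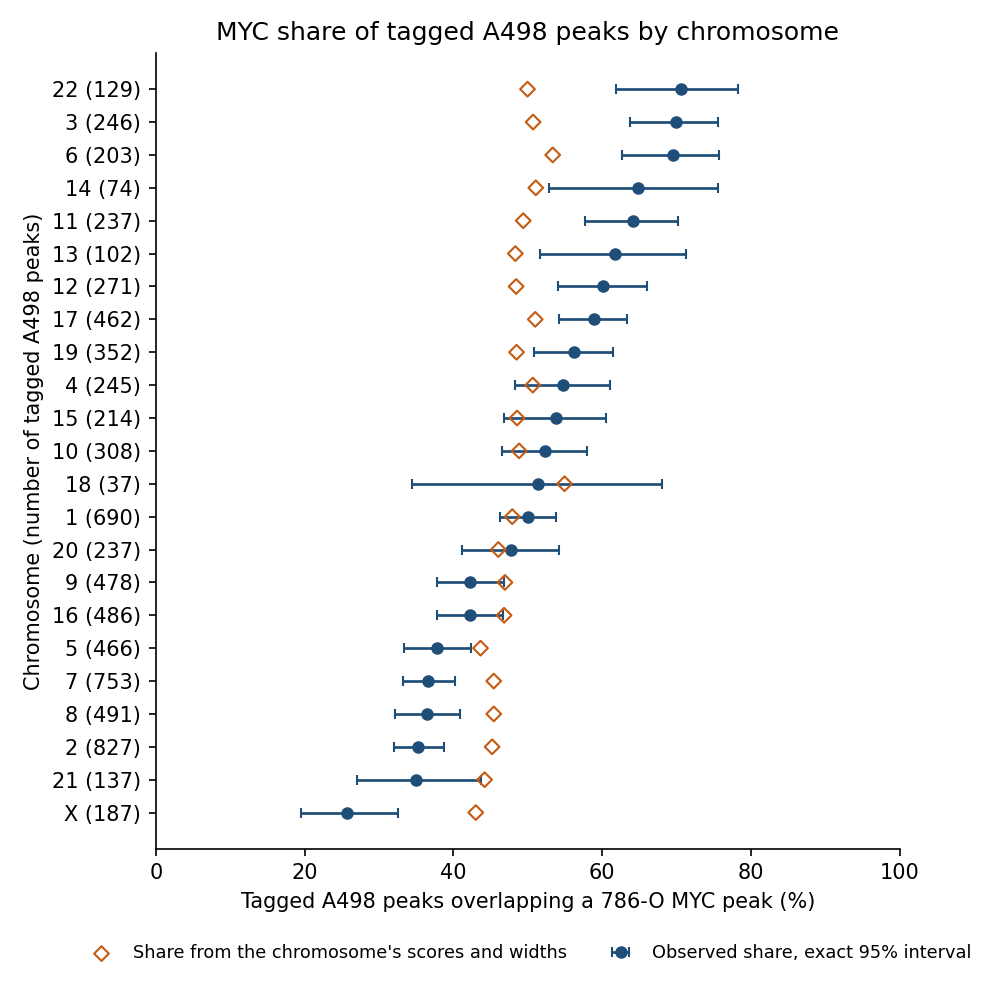
Share of tagged A498 peaks overlapping a 786-O MYC peak (x axis, percent) on each chromosome (y axis, number of tagged A498 peaks in parentheses), with exact 95% intervals; open diamonds give the share that follows from the chromosome's scores and widths. Observed shares run from 25.7% on X to 70.5% on 22, and for the chromosomes with 50 or more peaks the diamonds stay between 43.0% and 53.4%.

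A498 peaks without MYC were crowded in bins of differing kinds. In 1 Mb bins of chromosomes 1 to 22 and X, the most were found on chromosome 16 from 46 to 47 Mb (39 of 41 peaks without MYC, 31 of the 41 parental-matched), on chromosome 10 from 42 to 43 Mb (32 of 32, 31 parental-matched) and on chromosome 4 from 49 to 50 Mb (28 of 28, 16 parental-matched). Other bins held no parental-matched peak at all. On chromosome 5 from 2 to 3 Mb there were 19 A498 peaks, none parental-matched, none with MYC and none with a tagged 786-O peak, with a median score of 3.67. Chromosome 2 from 2 to 3 Mb, chromosome 7 from 57 to 58 Mb and chromosome X from 72 to 73 Mb held 15 such peaks each, with highest scores of 9.37, 7.90 and 10.2. Bins rich in shared peaks included chromosome 8 from 145 to 146 Mb (26 of 32 with MYC, 8 of the 32 parental-matched). Chromosome 17 from 79 to 80 Mb had MYC at 18 of 21, with 8 of the 21 parental-matched. Chromosome 16 had 16 of 20 from 0 to 1 Mb (2 parental-matched) and 16 of 17 from 2 to 3 Mb (4). In all, 688 of the 7632 peaks (9.01%) lay in the 220 bins that held A498 peaks and no MYC peak.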

How the data were processed

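The series holds 9 samples of chromatin immunoprecipitation followed by sequencing, of which 5 have a peak list and 4 are inputs. Fixation was in 1% formaldehyde (10 min) and sonication aimed at 500 bp, per the labels' protocols. Per the submitters' processing notes, BWA, MACS2 and hg19 were used. Which did what, and in which version and setting, was not given in the sources used here. Each deposited score was read as a −log10 value, p or q not stated, since each list begins just above 2; the authors called each library against 1 control. Groups came from titles. Overlaps, midpoints and deciles (ties in score ordered by width, then position) were computed in Python 3.11.15 with scipy 1.17.1, numpy 2.4.6, matplotlib 3.10.9 and pandas 2.3.3. Overlap code was tested on simulated data (0 of 5000 peaks wrong) and against bedtools 2.31.1 (0 of 102142 differed). Each group being 1 library, no replicate test was run.

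The named sites were the 10 of lowest rank sum with MYC, the 10 highest parental-free A498 peaks without MYC, the 5 highest MYC peaks without A498 and the 5 highest of each parental-matched class; the 3 highest and 3 lowest chromosomes of 50 or more peaks were named too. Members and lists were chosen with earlier results of these data known. The planned gene lists and motifs need hg19 annotation or sequence and were not run. Alternatives covered 2 other overlap rules, shorter lists, widths and contigs.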

Additional observations from a re-analysis of the deposited data

How the results depend on the processing

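Of 42 values under 7 alternatives, 12 stayed within the interval of the reported value and 30 left it. The 6 shares, always in this order, were those of all A498 peaks with MYC (46.8%), MYC peaks with A498 (17.2%), A498 decile 10 (63.1%), A498 decile 1 (26.2%), parental-free A498 peaks (42.6%) and parental-matched A498 peaks (67.6%). With 50% reciprocal overlap they were 15.5%, 5.94%, 38.2%, 5.71%, 13.7% and 24.7%, since under this rule a narrow A498 peak inside a much wider MYC peak no longer counts. With midpoints within 200 bp they were 31.4%, 12.0%, 43.5%, 17.5%, 28.6% and 45.0%. With the MYC list limited to its 7718 highest peaks they were 30.0%, 27.7%, 44.0%, 15.6%, 26.0% and 49.9%. With the upper 50% of each list and deciles drawn anew, decile 10 was 43.8%, decile 1 was 30.4% and parental-matched peaks 52.3%. Without the widest 1% of each list, all A498 peaks were 44.3%, MYC peaks 16.4%, parental-free peaks 40.7% and parental-matched peaks 63.2%. On chromosomes 1 to 22 and X, decile 10 was 66.8%. With A498 peaks at a parental A498 peak left out (added after seeing the data), all A498 peaks were 48.0%, MYC peaks 16.4%, decile 10 was 81.2% and parental-matched peaks 93.6%. Under this setting parental-free peaks stayed at 42.6% by construction, a value counted among the 12. The parental-matched peaks left were the class matched only by parental 786-O. The cause of moves not set by construction was not tested. Decile 10 stayed above decile 1 under all 7. No paired analysis was possible because each group is 1 library.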

Other observations

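Many tagged A498 peaks shared exactly the same score. Of the 7718 peaks, 2675 (34.7%) had 1 of 63 score values that were each held by 20 or more peaks, and 1725 (22.4%) had a score of their own. The most common value, 5.12, was held by 131 peaks, and the next, 4.49, by 129. Peaks of these 63 values had MYC in 37.2% (35.3 to 39.0) of cases, those of a value held by 2 or more but under 20 peaks in 55.1% (53.4 to 56.8) and those with a score of their own in 45.8% (43.4 to 48.2). In the same order, these classes also differed in median score (4.57, 6.00 and 9.68) and median width (222, 255 and 289 bp). Because equal scores were ordered by width, the border between neighbouring deciles can fall within a tied value, with the wider peaks above it. No ordering enters within a single value. At the 6 most common values the share with MYC was 17.3% (10.6 to 26.0) of 104 peaks at 3.90, 31.0% (23.2 to 39.7) of 129 at 4.49, 34.4% (26.3 to 43.1) of 131 at 5.12, 31.7% (23.5 to 40.8) of 120 at 5.77, 41.6% (30.4 to 53.4) of 77 at 6.46 and 58.3% (46.1 to 69.8) of 72 at 7.90. The 3 shares from 4.49 to 5.77 lay within each other's intervals.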
